A study of Mus musculus with 71 samples.

Results

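Tox, Tle4, Nova1, Rragd, Prkar2b, Ap1s2 and Tbc1d9 are 7 mouse genes at which the Polycomb protein RING1B took a different course in cells with the CaPS form of CBX7 than in cells with wild-type CBX7 (WT) during neural differentiation. They were chosen because RING1B rose more, or fell less, in CaPS than in WT between embryonic stem cells (ESC) and day-8 neural progenitor cells (NPC). Every deposited peak named for one of them and lying within 10 kb of its transcription start was taken, and in the time course the farther peaks too. That gave 54 of 72567 peak entries over 9 tables, of which 19 of 15091 stood in the time course. The genes are 7 of the 14852 that any table names.

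All groups derive from J1 cells, a mouse ESC line grown with LIF on feeder fibroblasts that were removed before differentiation. The genotypes used here were CBX7-mCaPS, CBX7-CaPS and WT; by its title, the series placed a domain known from the Polycomb proteins of committed cells in the PRC1 of pluripotent ones, and the labels do not spell out CaPS or mCaPS. NPC formed in suspension aggregates without LIF to which retinoic acid was added after day 4, and EB in hanging drops. RING1B ChIP of the time course had 2 CaPS and 2 WT libraries at each of ESC, day 6 and day 8, from experiments 3 and 5. Day-8 RING1B ChIP had 2 CaPS and 2 WT libraries, from experiments 3 and 4. ESC had 3 CaPS and 3 WT libraries each for RING1B and CBX7 ChIP, and 2 and 2 for H3K27me3 ChIP. CUT&RUN, an antibody-directed nuclease method, gave 1 library per genotype: mCaPS, CaPS and WT for RING1B in ESC, CaPS and WT for H3K27me3 in ESC, and CaPS and WT for RING1B in embryoid bodies (EB) at day 10. H3K27me3 ChIP at day 8 had 1 CaPS and 1 WT column, whose listed libraries are of experiment 5. Knockout libraries were not analysed here. No transcripts were measured, so the labelled cell types could not be checked against expressed markers. Separate cultures are not stated for the libraries of a group. Each p-value thus reflects only the spread usual among these libraries at that signal strength, and that spread may be technical.

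RING1B is the ubiquitin ligase of Polycomb repressive complex 1 (PRC1), which marks histone H2A and keeps developmental genes silent. CBX7 is the subunit that reads H3K27me3, the mark laid down by Polycomb repressive complex 2, and it is the main CBX protein of ESC. In ESC these complexes sit mostly at CpG-rich starts of developmental genes, and their sites change as cells differentiate. Of the 7 genes, Tox encodes an HMG-box nuclear protein best known from T-cell development, Tle4 a Groucho co-repressor, and Nova1 a neuronal splicing factor. Rragd encodes a Rag GTPase that carries amino-acid signals to mTORC1, and Prkar2b a regulatory subunit of protein kinase A. Ap1s2, which is X-linked, encodes a small subunit of the AP-1 clathrin adaptor, and Tbc1d9 a TBC-domain protein of the Rab-regulator class.

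The windows below are shown because they lie wholly inside the RING1B peak of the time course, so the signal described covers an annotated start. Prkar2b has a second window, chr12:32061228-32061527, which holds the start that the distances in the files refer to. It lies 341 bp outside the peak, with 32 CG dinucleotides. Tle4 also has a second window, chr19:14598134-14598433, with 28 CG dinucleotides, of which the peak covers 31 bases. Distances of the upstream Tle4 peaks refer to the start in that second window. RefSeq (GRCm38.p6, the assembly called mm10 in the files) gave 300-base windows, 250 bases before to 50 after a start, for 6 of the 7 genes, 8 windows in all, and 4 of the 8 lay wholly within the peak. Capitals mark CG dinucleotides, and each sequence reads 5′ to 3′ along its gene.
Tle4, chr19:14597164-14597463, minus strand: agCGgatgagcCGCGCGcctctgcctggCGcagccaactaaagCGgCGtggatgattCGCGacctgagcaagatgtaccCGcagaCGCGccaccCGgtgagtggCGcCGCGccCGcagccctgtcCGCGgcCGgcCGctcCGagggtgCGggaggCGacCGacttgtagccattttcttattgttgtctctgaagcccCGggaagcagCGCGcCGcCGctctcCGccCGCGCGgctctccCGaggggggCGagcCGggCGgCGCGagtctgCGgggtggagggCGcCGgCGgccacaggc
Rragd, chr4:32982748-32983047, plus strand: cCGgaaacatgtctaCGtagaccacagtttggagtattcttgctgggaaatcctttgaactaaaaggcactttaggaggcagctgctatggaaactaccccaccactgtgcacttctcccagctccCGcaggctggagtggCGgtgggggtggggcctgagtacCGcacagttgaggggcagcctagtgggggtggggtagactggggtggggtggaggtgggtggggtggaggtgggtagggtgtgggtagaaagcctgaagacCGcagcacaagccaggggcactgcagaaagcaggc
Nova1, chr12:46818718-46819017, minus strand: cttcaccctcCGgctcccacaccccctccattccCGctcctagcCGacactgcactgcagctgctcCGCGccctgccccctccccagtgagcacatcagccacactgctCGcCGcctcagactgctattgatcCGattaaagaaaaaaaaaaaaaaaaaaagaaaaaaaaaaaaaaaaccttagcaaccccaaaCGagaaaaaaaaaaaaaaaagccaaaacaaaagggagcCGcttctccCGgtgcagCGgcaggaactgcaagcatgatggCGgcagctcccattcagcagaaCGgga
Prkar2b, chr12:32060540-32060839, minus strand: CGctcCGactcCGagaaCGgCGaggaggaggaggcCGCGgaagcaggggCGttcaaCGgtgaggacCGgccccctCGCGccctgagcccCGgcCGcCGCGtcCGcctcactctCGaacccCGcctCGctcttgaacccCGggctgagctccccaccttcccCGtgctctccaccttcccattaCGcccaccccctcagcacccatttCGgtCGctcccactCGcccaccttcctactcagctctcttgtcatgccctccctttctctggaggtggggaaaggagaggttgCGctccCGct
The Tle4 window held 44 CG dinucleotides, a number that 2.25% of the 32851 RefSeq windows reach, and that of Prkar2b held 28, which 14.2% reach. The windows of Nova1 and Rragd held 14 and 6, against a median of 7 over all windows. The Ap1s2 window, with 39 CG dinucleotides, ended 322 bp before its RING1B peak, and that of Tbc1d9, with 5, ended 662 bp before it. Observed over expected CG was 1.1 for Tle4, 1.03 for Ap1s2, 0.85 for Prkar2b, 0.76 for Nova1, 0.33 for Tbc1d9 and 0.25 for Rragd in these windows, against a median of 0.38. CG-rich and CG-poor starts are thus both present among the genes. A search of both strands for the E-box CANNTG found it in 6 of the 8 windows, against 72.3% of all windows. The retinoid receptor half-site AGGTCA stood in 1 of the 8, that of Tbc1d9, against 16.3% of all windows.

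The strongest RING1B peak of each gene was centred downstream of its start, and at Tox, Tle4, Rragd and Nova1 it also reached across the start. At Tle4 the peak ended short of the other annotated start, in the second window. On mm10 it covered chr4:6987154-6991169 at Tox, chr19:14591593-14598164 at Tle4, chr12:46815946-46819076 at Nova1 and chr4:32982255-32987010 at Rragd. At Prkar2b it covered chr12:32059219-32060886, at Ap1s2 chrX:163909389-163911887 and at Tbc1d9 chr8:83166064-83167797. By peak centre, the files annotate 6 of the 7 to the first intron and that of Tle4 to the third; 39.2% of all genes have their strongest peak in an intron. Peak centres lay 1227 to 2335 bp downstream of the start, with a median of 1578 bp; 13.4% of the 7875 genes with a peak within 10 kb have their strongest one centred 1000 to 2500 bp downstream. The peaks were 1668 to 6572 bp wide, with a median of 3131 bp, against 1046 bp over the strongest peaks of all genes. The map of peaks by distance from the start sets them beside the peaks of the other tables.

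**Figure D1:**
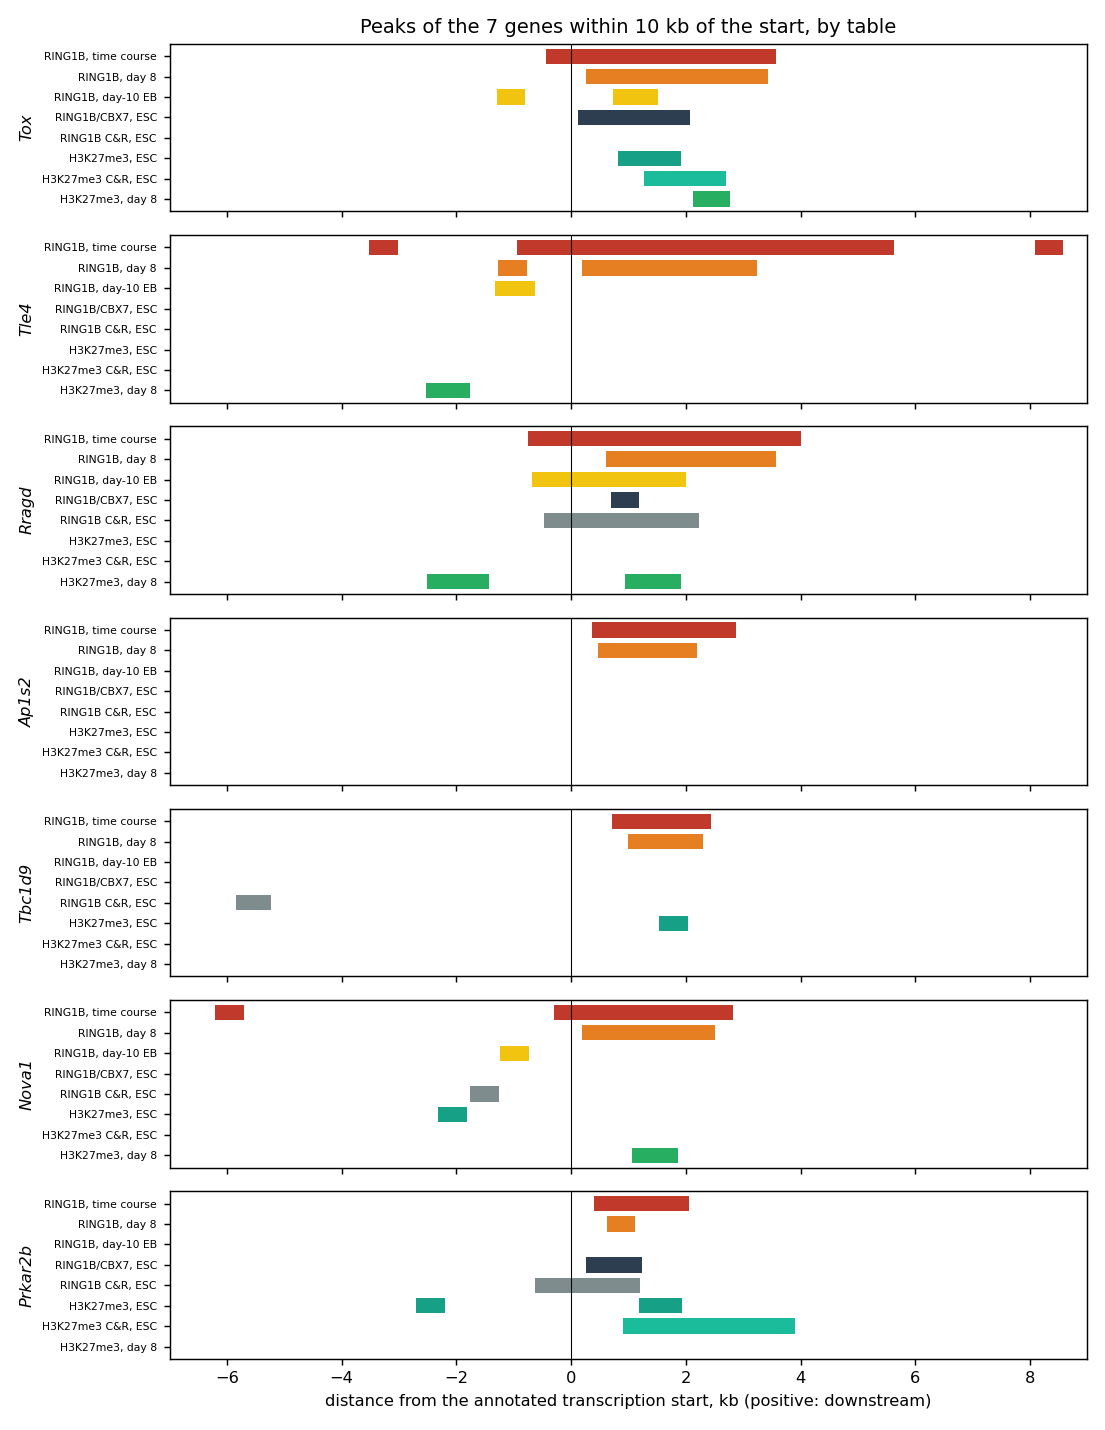
Extent of every peak within 10 kb of the start of the 7 genes, in kb from the start, with 1 row per table (C&R, CUT&RUN; CBX7 and RING1B ChIP in ESC share their intervals). Distances of Tle4 peaks refer to different annotated starts, so its downstream and upstream bars do not share an origin. Each gene has its strongest time-course peak centred downstream of the start, with those of Tox, Tle4, Rragd and Nova1 reaching across it, while peaks of Tle4 and Nova1 in the EB table, and of Nova1 in the ESC tables, lie upstream of it.

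In the time course RING1B values in CaPS were higher at day 8 than in ESC in both experiments at 6 of the 7 genes, all but Prkar2b. Taken singly, experiment 3 had 6 of 7 genes higher, against 25.8% of all peaks, and experiment 5 had 7 of 7, against 37.5%. In WT the values were close to or below the ESC level at most of the genes. Because the genes were chosen on these libraries, the values are a description and carry no test. Values are tags in the peak per 10 M tags of the library. At Tox, CaPS libraries had 41.1 and 68.2 tags per 10 M in ESC, 78.3 and 151 at day 6 and 122.94 and 226 at day 8, in experiments 3 and 5. WT libraries had 98.6 and 97.2 in ESC, 44.1 and 89.7 at day 6 and 52.1 and 37.1 at day 8. Both CaPS libraries lay below both WT libraries in ESC and above them at day 8, so the order of the genotypes turned over. At day 8 both CaPS libraries lay above both WT libraries at 26.5% of all peaks. The share of all peaks that turned over was not counted. At Tle4, CaPS libraries had 39.1 and 12.4 tags per 10 M in ESC, 92.9 and 176 at day 6 and 169 and 304 at day 8. WT libraries had 35.5 and 38.5 in ESC, 41.1 and 34.9 at day 6 and 43.6 and 65.3 at day 8. The groups did not overlap at day 6 or day 8, and WT libraries stayed between 34.9 and 65.3 throughout. At Nova1, CaPS libraries had 27.5 and 16.5 tags per 10 M in ESC, 61.9 and 116 at day 6 and 79.7 and 142 at day 8. WT libraries had 21.8 and 36.7 in ESC, 20.4 and 12.5 at day 6 and 33.9 and 16.9 at day 8. Most of the difference between day 8 and ESC in CaPS was present by day 6.

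Rragd, the amino-acid signalling GTPase, had the highest day-8 signal of the 7 genes in CaPS. Its CaPS libraries had 51.3 and 43.4 tags per 10 M in ESC, 88.0 and 237 at day 6 and 190 and 385 at day 8. WT libraries had 53.8 and 55.0 in ESC, 37.8 and 64.8 at day 6 and 60.5 and 43.5 at day 8. The genotypes were close in ESC and apart at both later stages. Prkar2b, the kinase A subunit, followed another shape. Its CaPS libraries had 30.4 and 14.5 tags per 10 M in ESC, 44.2 and 114 at day 6 and 29.4 and 31.3 at day 8. WT libraries had 34.7 and 45.8 in ESC, 14.4 and 9.96 at day 6 and 14.8 and 16.1 at day 8. RING1B was thus highest at day 6 in CaPS and near its ESC level at day 8 in experiment 3, whereas WT values were already low at day 6.

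The membrane-traffic genes had most of their CaPS signal at day 8. Ap1s2 had 9.98 and 8.27 tags per 10 M in CaPS ESC, 23.9 and 49.6 at day 6 and 85.4 and 186 at day 8. WT libraries had 6.18 and 20.2 in ESC, 19.9 and 15.0 at day 6 and 20.7 and 16.1 at day 8. Day 8 minus day 6 in CaPS was 1.8 and 1.89 on the log2(value + 1) scale, the largest such step among the 7 genes in both experiments. Tbc1d9 had 17.5 and 16.5 tags per 10 M in CaPS ESC, 23.9 and 26.8 at day 6 and 52.9 and 76.4 at day 8. WT libraries had 28.8 and 34.8 in ESC, 22.05 and 17.4 at day 6 and 16.1 and 12.9 at day 8. CaPS lay below WT in ESC and above it afterwards, in both experiments.

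**Figure D2:**
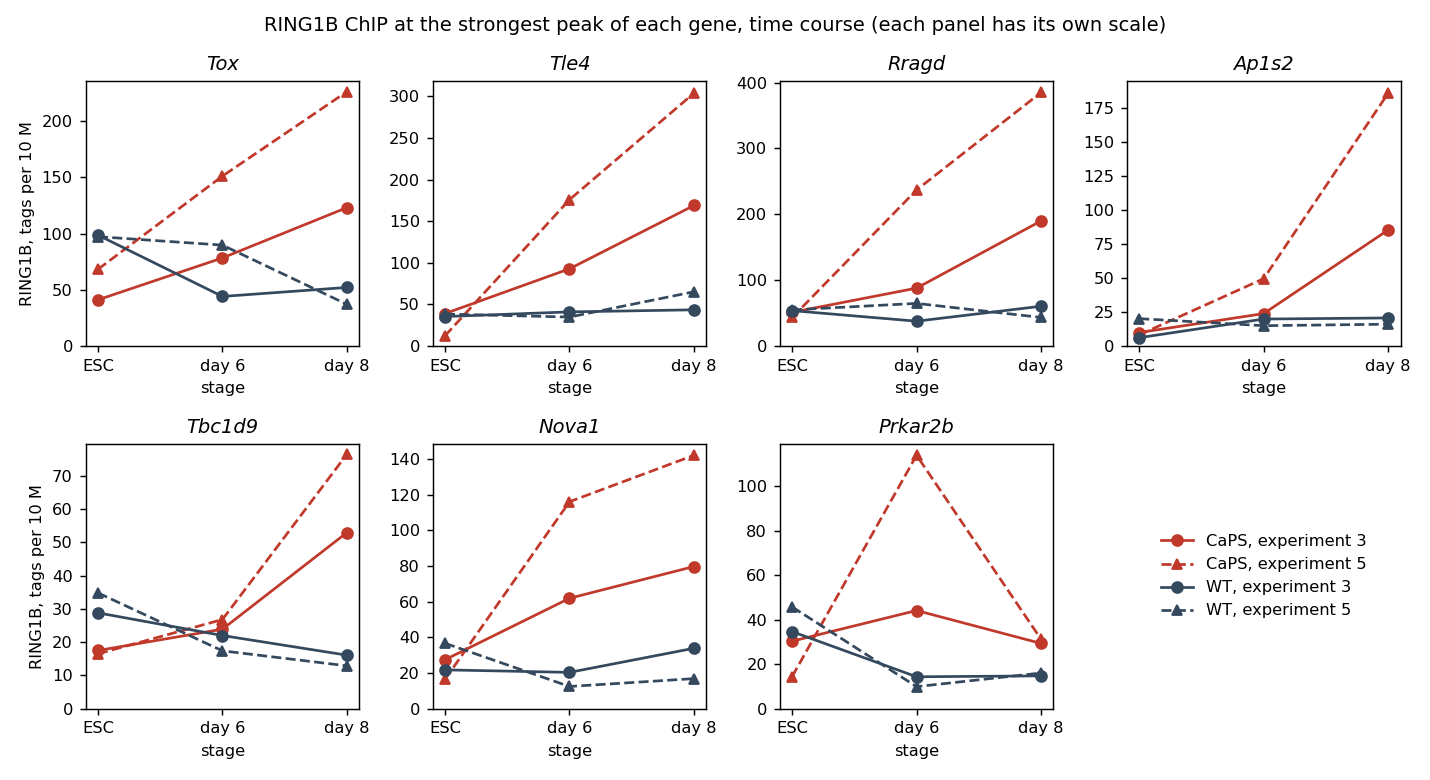
RING1B ChIP signal in tags per 10 M at the strongest peak of each gene in ESC, day-6 and day-8 NPC; circles and solid lines are experiment 3, triangles and dashed lines experiment 5, CaPS in red and WT in grey-blue. Both CaPS libraries lie above both WT libraries at day 8 in all 7 panels, and Prkar2b alone among the 7 has its highest CaPS values at day 6.

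The contrast of courses, (day 8 minus ESC in CaPS) minus (day 8 minus ESC in WT), was computed on log2(value + 1). It came to 3.01 for Ap1s2, 2.92 for Tbc1d9, 2.78 for Tle4, 2.77 for Tox, 2.58 for Rragd, 2.49 for Nova1 and 1.82 for Prkar2b as the mean of both experiments. The median of the 7 genes was 1.7 in experiment 3 and 3.51 in experiment 5, against 0.08 and 0.24 over all peaks. Ranked over all 15091 peaks, Ap1s2 stood at 95 and Prkar2b at 869, with the others between. The contrast was above 0 in both experiments for 7 of 7 genes, against 33.9% of all peaks, a share read here only as background since the rule fixed the direction. At day 6 it was above 0 in both experiments for 6 of 7, against 36.6%; the exception was Ap1s2, at -0.36 in experiment 3. Both CaPS libraries lay above both WT libraries at 7 of 7 genes at day 8, against 26.5% of all peaks. At day 6 the genotypes overlapped at Tox, whose lower CaPS library, at 78.3, lay below the higher WT library, at 89.7.

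The contrast has a CaPS term and a WT term, and the genes differ in which of them is large. Day 8 minus ESC in CaPS was above 0 in both experiments at 6 of the 7 genes. In experiment 3 alone 6 of 7 were above 0, against 25.8% of all peaks, and in experiment 5 alone 7 of 7, against 37.5%. The median over the 7 genes was 1.56 in experiment 3 and 3.03 in experiment 5, against -0.64 and -0.35 over all peaks. Prkar2b was the exception, at -0.04 and 1.06. In WT it was below 0 in both experiments at Tox, Tbc1d9 and Prkar2b, between -1.45 and -0.8, and above 0 in both at Tle4, at 0.29 and 0.75. At Rragd, Ap1s2 and Nova1 the WT experiments went opposite ways. Over all peaks the WT median was -0.61 and -0.62. The genotypes also differed in ESC, and a lower CaPS value there raises the contrast. In ESC, CaPS minus WT had a median of -0.07 over the 7 genes in experiment 3 and -1.1 in experiment 5. Over all peaks that median was 0.16 and 0.0. Above 0 were 3 of the 7 genes in experiment 3 and 0 in experiment 5, against 58.6% and 46.9% of all peaks. Experiment 5 is the shallow one, with 2.01 to 6.2 M tags per library against 11.3 to 25.34 M in experiment 3. The CaPS ESC value of experiment 5 rests on 2 tags at Ap1s2, 3 at Tle4, 3.5 at Prkar2b and 4 each at Nova1 and Tbc1d9. The WT day-6 value of that experiment rests on 2 tags at Prkar2b, 2.5 at Nova1, 3 at Ap1s2 and 3.5 at Tbc1d9. A count of 3 tags corresponds to 12.399 tags per 10 M in that CaPS ESC library, so the larger contrasts of experiment 5 are loosely set.

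**Figure D3:**
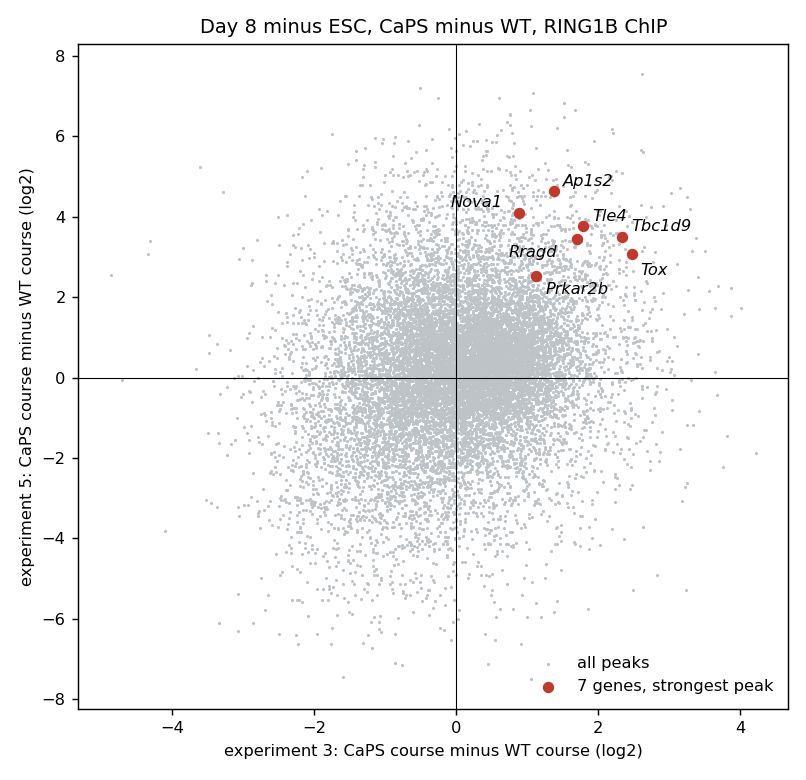
Contrast of RING1B courses (day 8 minus ESC, CaPS minus WT, log2(value + 1)) in experiment 3 (x axis) and experiment 5 (y axis) for 15091 peaks in grey and the strongest peak of the 7 genes in red. The 7 genes lie in the upper right, at 0.89 to 2.47 in experiment 3 and 2.52 to 4.64 in experiment 5.

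The other 12 time-course peaks named for these genes, all at Tle4 or Nova1, were weaker. Each averaged 2.11 to 15.5 tags per 10 M over the 12 libraries. The contrast was above 0 in both experiments for 2 of 3 within 10 kb and for 1 of 9 farther away, against 33.9% of all peaks. At Nova1 the peak 5951 bp upstream had contrasts of 2.08 and 2.71, and one 894169 bp upstream 2.38 and 3.19, while one 572712 bp upstream had -1.79 and -5.18. At Tle4 the peak 8328 bp downstream had 0.94 and 3.58, with values of at most 18.58 tags per 10 M. That peak is the outermost within the 10 kb limit; the nearest beyond it in any table was an H3K27me3 peak 26613 bp downstream of the Tle4 start.

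Profiles of the 7 genes over the 12 libraries, centred within experiments, resembled one another. The Pearson correlation of a gene with the mean of the other 6 was 0.95 for Rragd and for Nova1, 0.82 to 0.87 for Tox, Tle4, Ap1s2 and Tbc1d9, and 0.57 for Prkar2b. These are descriptions, since the points share libraries and the genes were chosen for this course. Outside the set, the 5 most similar of 5150 genes with a mean of at least 10 tags per 10 M were Slc25a30 (r = 0.97), Gldc (0.94), Prok2 (0.93), Usp44 (0.93) and Strip2 (0.91). Usp44, a deubiquitinase, had 274 and 464 tags per 10 M at day 8 in CaPS, against 106 and 95.1 in WT. Prok2, a secreted prokineticin, had 310 and 611 in CaPS, against 155 and 158 in WT. At day 8 CaPS and WT libraries did not overlap at either gene. Both CaPS libraries lay above both WT libraries at 26.5% of all peaks. The others are Slc25a30, a mitochondrial carrier, Gldc, the decarboxylase of the glycine cleavage system, and Strip2, a STRIPAK component.

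Day-8 libraries of experiment 4 took no part in choosing the genes. In them RING1B was higher in CaPS than in WT at 6 of the 7 genes, whereas it was higher at 21.7% of all 5393 day-8 peaks. With 1 library per genotype there is no test, and each ratio has an exact Clopper-Pearson interval at 95% that covers counting error only. Ap1s2 had 29.4 tags per 10 M in CaPS and 5.74 in WT, a ratio of 5.12 (1.58 to 26.3). Rragd had 79.8 in CaPS and 40.2 in WT, a ratio of 1.99 (1.21 to 3.39). Their intervals exclude 1. Tbc1d9 had 11.6 in CaPS and 3.82 in WT, a ratio of 3.02 (0.659 to 28.04) resting on 11 and 2 tags. Tox had 63.5 in CaPS and 44.9 in WT, a ratio of 1.41 (0.865 to 2.38). Tle4 had 29.9 in CaPS and 22.95 in WT, a ratio of 1.30 (0.644 to 2.81). For these and for Nova1, with 39.4 in CaPS and 32.5 in WT and a ratio of 1.21 (0.666 to 2.29), a difference was not detectable at this depth. Prkar2b had 5.78 in CaPS and 7.65 in WT, a ratio of 0.756 (0.171 to 3.71).

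The median difference in experiment 4 was 0.49 on the log2(value + 1) scale over the 7 genes and -0.88 over all peaks. Past 2-fold, Ap1s2 and Tbc1d9 were higher in CaPS, 2 of 7 against 7.42% of all peaks, and none of the 7 was lower, against 45.2%. In this experiment 3.20% of tags lay in peaks in CaPS, against 5.1% in WT, so most peaks are lower in CaPS on the deposited scale; the part of that in single genes was not tested. Experiment 3 of the same table, which shares its samples with the time course and so was used in choosing, had ratios of 2.19 at Prkar2b to 5.44 at Tle4. All 7 were higher in CaPS there, against 57.8% of all peaks, and past 2-fold higher, against 11.4%. Both experiments therefore put 6 of the 7 genes higher in CaPS, with smaller ratios in experiment 4 at Rragd, Tox, Tle4 and Nova1; Ap1s2 had 5.12 and 4.15 and Tbc1d9 3.02 and 2.94 in experiments 4 and 3. A second, weak Tle4 peak lay 1023 bp upstream of the start in the second Tle4 window. It had 8.93 in CaPS and 15.3 in WT in experiment 4, and 12.4 in CaPS and 8.71 in WT in experiment 3.

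H3K27me3 at day 8 was measured at 4 of the 7 genes and was higher in CaPS at 3 of them, against 9.50% of all 8657 peaks. The same 3 were past 2-fold higher, against 2.80%, while 53.1% of all peaks were past 2-fold lower. The columns are headed as pooled, hold the authors' values, and come from 32.88 M tags in CaPS and 4.47 M in WT. By the labels their libraries belong to experiment 5. RING1B libraries of that experiment were used in choosing the genes, so the count may not be independent of the choice. Nova1 had 26.9 tags per 10 M in CaPS and 6.71 in WT, a ratio of 4.01 (1.33 to 19.8). Rragd had 49.7 in CaPS and 17.9 in WT at its stronger peak, downstream of the start, a ratio of 2.78 (1.38 to 6.54). Its upstream peak had 37.7 in CaPS and 22.4 in WT, a ratio of 1.68 (0.886 to 3.60). Tox had 21.1 in CaPS and 1.12 in WT, a ratio of 18.9 whose interval runs from 1.96 to 19440, because the WT value is a single read end, or 0.5 tag. With 69.5 tags in CaPS, that peak can be listed only through CaPS, the genotype where it is high. The Nova1 values rest on 88.5 tags in CaPS and 3 in WT, and those of the stronger Rragd peak on 163.5 and 8. Whether the Nova1 and Rragd peaks were also listed through CaPS alone was not tested, so the counts above may depend on the listing. Each of these 3 marked peaks overlaps the RING1B peak of the time course. Tle4 had 23.3 in CaPS and 30.2 in WT, a ratio of 0.770 (0.428 to 1.49), at a peak upstream of the start that does not overlap its RING1B peak. The median difference was 1.64 on the log2(value + 1) scale over the 4 genes and -1.06 over all peaks. Here 8.20% of tags lay in peaks in CaPS, against 16.4% in WT; the part of that gap, and of the unequal depth, in these ratios was not tested. Ap1s2, Tbc1d9 and Prkar2b have no H3K27me3 peak in the day-8 table.

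**Figure D4:**
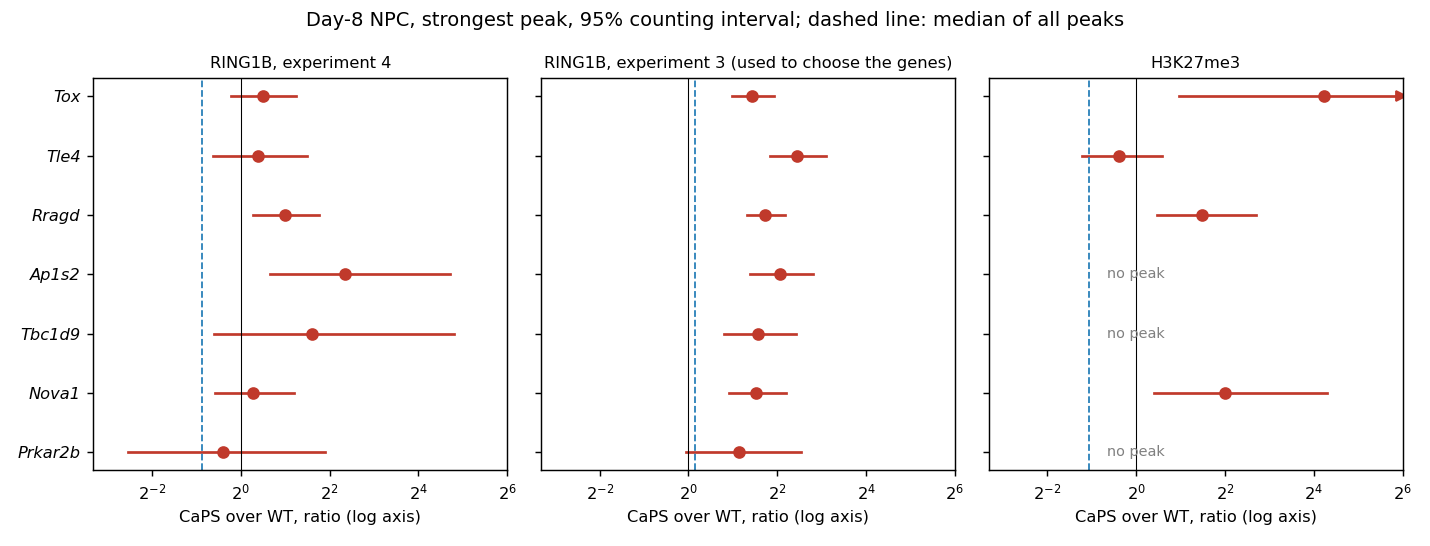
CaPS over WT ratio (log axis) at day 8 for the strongest peak of each gene, with exact 95% counting intervals; an arrow marks an interval that runs past the axis and the dashed line is the median of all peaks. In experiment 4 the points of 6 genes lie right of 1 and all 7 lie right of the dashed line, and the H3K27me3 points of Tox, Rragd and Nova1 lie right of 1 with intervals that exclude it.

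CBX7 itself was measured in ESC alone. It could be read at 3 of the 7 genes, since CBX7 was measured on the RING1B intervals, and was lower in CaPS in all 3 experiments at 3 of 3 genes, as at 60.9% of all peaks. Tox had 16.9, 34.2 and 20.96 tags per 10 M in CaPS, against 36.2, 78.2 and 45.0 in WT, in experiments 1, 2 and 3. Its means were 24.03 ± 9.05 in CaPS and 53.1 ± 22.2 in WT (SD, n = 3 each), and the log2 change was -1.1 (SE 0.31, limma adjusted p = 0.00176). Prkar2b had 6.97, 7.60 and 5.29 in CaPS, against 10.7, 39.1 and 9.05 in WT, and the value of 7.60 rests on 2 tags. Its means were 6.62 ± 1.19 in CaPS and 19.6 ± 16.9 in WT, and the log2 change was -1.15 (SE 0.43, limma adjusted p = 0.0194). Rragd had 2.99, 5.70 and 3.15 in CaPS, against 6.85, 12.2 and 4.81 in WT, a log2 change of -0.81 (SE 0.54, limma adjusted p = 0.223). CBX7 thus fell at Tox and Prkar2b by the test, 2 of 3 measured genes, against 44.3% of all 6326 peaks, so the count is near the background; 0.0632% of peaks rose and none of the 3 genes. The median over the 3 genes was -1.1 and that over all peaks -0.85.

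With every library brought to the same sum over the peaks, which takes the all-peak median to 0.11, the CBX7 changes were -0.08 at Tox and -0.18 at Prkar2b and neither was called (limma adjusted p = 0.912 and 0.876). Without the experiment as a block, neither was called (limma adjusted p = 0.372 at Tox and 0.364 at Prkar2b), and Prkar2b also lost its call without experiment 1 (0.0559) or without experiment 2 (0.26).

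RING1B in ESC was tested in experiments 1 and 2, which the choice of genes did not use, and no change at the 3 measured genes passed the test. Tox had 27.2 and 62.9 tags per 10 M in CaPS, against 43.0 and 123.09 in WT, with a log2 change of -0.8 (SE 0.58, limma adjusted p = 0.372). Rragd had 5.62 and 4.49 in CaPS, from 3 and 1 tags, against 4.94 and 23.8 in WT, with a log2 change of -1.01 (SE 1.36, limma adjusted p = 0.644). Prkar2b had 16.9 and 49.4 in CaPS, against 11.3 and 58.2 in WT, with a log2 change of 0.15 (SE 0.8, limma adjusted p = 0.911). The test called 17.4% of all 6326 peaks lower in CaPS and 1 peak, or 0.0158%, higher. At an unadjusted p under 0.05 none of the 3 genes passed. With edgeR and DESeq2, 0 of all 6326 peaks were called, with 107 and 27 at an unadjusted p under 0.05. Both rescale the libraries over the peaks, which took the all-peak median from -1 to 0 and -0.03. In experiment 3, which is also in the time course, Tox had 30.6 in CaPS and 74.0 in WT, a ratio of 0.414 (0.312 to 0.546). All 3 ESC experiments gave a lower RING1B value in CaPS at Tox, as at 42.2% of all peaks, with counting intervals that exclude 1 in experiments 2 and 3. The 95% interval of the fitted change at Tox ran from -1.94 to 0.34.

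RING1B CUT&RUN in ESC had peaks at 4 of the 7 genes, all lower in mCaPS and in CaPS than in WT; 5.59% of all peaks were above WT in mCaPS and 11.5% in CaPS. Prkar2b had 9.26 tags per 10 M in mCaPS, 8.82 in CaPS and 22.8 in WT, with ratios to WT of 0.406 (0.186 to 0.810) for mCaPS and 0.387 (0.174 to 0.782) for CaPS. Rragd had 13.7 in mCaPS, 22.9 in CaPS and 30.6 in WT, with ratios to WT of 0.446 (0.237 to 0.791) and 0.748 (0.453 to 1.21). The interval excludes 1 for both forms at Prkar2b and for mCaPS at Rragd. Over all peaks the median difference was -0.93 for mCaPS and -0.62 for CaPS, and 2.07% of tags lay in peaks in mCaPS, 3.01% in CaPS and 4.61% in WT; the part of that gap in these ratios was not tested. Tbc1d9, at a peak 5536 bp upstream of its start, had 6.17 in mCaPS, 4.41 in CaPS and 11.3 in WT. Nova1 had 1.32 in mCaPS, 2.21 in CaPS and 4.98 in WT, from 1.5, 2.5 and 9.5 tags. Past 2-fold lower than WT were 3 of 4 genes in mCaPS, against 44.9% of all 10106 peaks, and 2 of 4 in CaPS, against 22.5%. Between the 2 forms, mCaPS over CaPS was 1.05 (0.399 to 2.78) at Prkar2b and 0.596 (0.296 to 1.16) at Rragd, so no difference between them was detectable at this depth.

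No change of H3K27me3 in ESC passed the test at these genes. By ChIP, Tox had 18.6 and 25.2 tags per 10 M in CaPS, against 16.5 and 34.4 in WT, in experiments 1 and 5, and a log2 change of -0.13 (SE 0.5). Prkar2b had 12.7 and 22.2 in CaPS, against 11.9 and 22.3 in WT, and a log2 change of 0.04 (SE 0.5). Nova1 and Tbc1d9 had log2 changes of -0.16 (SE 0.59) and -0.17 (SE 0.55), and Tbc1d9 had 8.19 and 8.83 in CaPS, against 4.99 and 18.0 in WT, with opposite directions in the 2 experiments. The limma adjusted p was 1.0 for each of the 4 genes, 0 of 9195 peaks (0%) were called and 101 had an unadjusted p under 0.05. By edgeR, 49 peaks were called lower and 8 higher, none at these genes. DESeq2 called 10 lower and gave no adjusted p for the peaks of these genes. By CUT&RUN, Prkar2b had 46.2 in CaPS and 35.8 in WT, a ratio of 1.29 (0.895 to 1.87), and Tox had 23.8 in CaPS and 21.5 in WT, a ratio of 1.11 (0.671 to 1.83). Above 1 were 2 of 2 genes, against 72.9% of all 4926 peaks.

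In day-10 EB, where RING1B was measured by CUT&RUN, CaPS and WT did not differ beyond counting error at any of the 4 genes with a peak. Rragd had 30.1 tags per 10 M in CaPS and 24.4 in WT, a ratio of 1.23 (0.741 to 2.07). Nova1 had 8.94 in CaPS and 4.06 in WT, a ratio of 2.20 (0.705 to 8.08). Tle4 had 10.6 in CaPS and 10.97 in WT, a ratio of 0.964 (0.414 to 2.23). At Tox the stronger peak, downstream of the start, had 15.0 in CaPS and 19.9 in WT, a ratio of 0.755 (0.390 to 1.44), and the upstream peak 8.94 in CaPS and 3.66 in WT, a ratio of 2.44 (0.756 to 9.64). Above 1 were 2 of 4 genes, against 59.3% of all 6547 peaks. The Tle4 and Nova1 peaks in EB lie upstream of the start and do not overlap their time-course peaks.

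Set side by side, the tables did not place the genotypes in the same order. At day 8, RING1B was higher in CaPS at all 7 genes in experiment 3, which was used in choosing, against 57.8% of all peaks. In experiment 4 it was higher at 6 of 7, against 21.7%. In ESC, ChIP put it lower at Tox in 3 of 3 experiments, as at 42.2% of all peaks, and gave mixed signs at Rragd and Prkar2b. CUT&RUN in ESC put it lower at 4 of 4 genes, where 11.5% of all peaks were above WT. In EB it was higher at 2 of 4, against 59.3%. The counts of ESC CUT&RUN and of EB are thus near the background. Rragd had a RING1B peak at each stage. Its CaPS over WT ratio in ESC was 0.748 by CUT&RUN and 0.548 (0.235 to 1.24) by ChIP in experiment 3, which was used in choosing. On the wider time-course interval that ESC pair had 51.3 tags per 10 M in CaPS and 53.8 in WT. ESC ChIP experiments 1 and 2 went opposite ways at Rragd. Experiment 1 had 5.62 in CaPS and 4.94 in WT, and experiment 2 had 4.49 in CaPS and 23.8 in WT. The Rragd ratio was 1.99 and 3.30 in day-8 experiments 4 and 3, and 1.23 in EB. Tle4 and Ap1s2 had no peak within 10 kb in any ESC table, so for these genes the ESC level is known from the time-course intervals alone. The tables list peaks called in different samples and by different methods, so a missing entry is no measure of absence. How far the method, the stage and the experiment each bear on these differences was not tested.

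**Figure D5:**
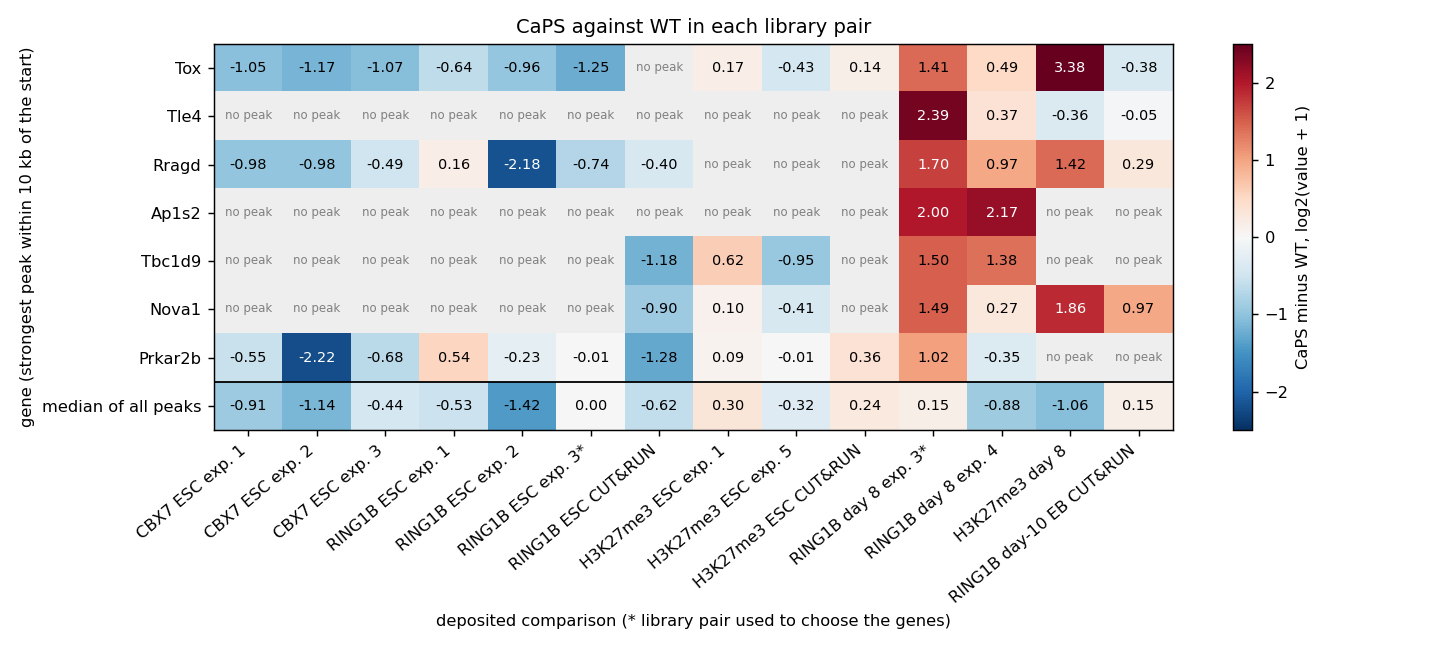
Difference CaPS minus WT, in log2(value + 1), at the strongest peak within 10 kb of each gene (rows) for 14 library pairs (columns), with the median of all peaks in the bottom row; grey cells have no peak. Day-8 RING1B cells are above 0 at all 7 genes in experiment 3 and at 6 in experiment 4, against 57.8% and 21.7% of all peaks. Every CBX7 cell in ESC is below 0, as is the median of all peaks in those columns.

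Relatives of the 7 genes, listed by family (TOX, Groucho/TLE, Rag GTPases and partners, AP-1, TBC domain, NOVA and other neuronal splicing factors, protein kinase A), are set beside them here. Of 63 relatives, 34 had a time-course peak within 10 kb, and the contrast was above 0 in both experiments for 16 of them, against 33.9% of all peaks, with a median of 0.32 against 0.2 over all peaks. Celf2, an RNA-binding splicing regulator, had 1.62, Tox3, a TOX relative, 1.4, and Tbc1d30 1.35. In day-8 experiment 4, Celf2 with 69.3 tags per 10 M in CaPS and 24.9 in WT, Tle3 with 26.8 and 9.56, and Tle1 with 8.93 and 0.960 (1 read end), were past 2-fold higher in CaPS. That is 3 of 21 measured relatives, beside 7.42% of all peaks. Past 2-fold lower were 12 of 21, beside 45.2% of all peaks, among them Rbfox3 with 20.5 in CaPS and 77.4 in WT, Rbfox1 with 15.8 and 58.3, and Tbc1d4 with 25.7 and 56.4. H3K27me3 at day 8 was past 2-fold higher in CaPS at 1 of 25 relatives (2.80% of all peaks), Celf2 with 90.6 in CaPS and 43.6 in WT, and past 2-fold lower at 7 (53.1% of all peaks), including Tox3 with 3.95 in CaPS and 24.6 in WT. CBX7 in ESC fell at 11 of 27 relatives by the limma test and rose at none, beside 44.3% of all peaks lower; Tox3, with 22.4 ± 14.1 in CaPS and 75.8 ± 48.8 in WT (SD, n = 3 each), had a log2 change of -1.76 (limma adjusted p = 5.73e-07). These calls depend on the scaling and the block: over all peaks CBX7 had 103 lower with the same sum over the peaks and 2 without the block, against 2801. RING1B in ESC fell at 3 of 27 by limma, Tle3, Tbc1d1 and Rbfox3, beside 17.4% of all peaks. Called over all peaks were 0 by edgeR or DESeq2, which rescale the libraries over the peaks, and 9 by limma over all 3 experiments. H3K27me3 was called at 0 of 16 by limma.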

How the data were processed

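Values are normalised signal: per the file headers, the authors deposited tags per peak scaled to 10 M tags per library, on mm10, from HOMER. Tools in the submitters' processing notes are HOMER 4.10.4, SAMtools 1.9, Bowtie2 2.3.4.3 and cutadapt 1.14. ChIP had a Drosophila spike-in per the labels; no source used here says whether the totals carry its correction. Multiplied by the header totals, 100% of values gave whole read ends (0.5 tag) within 0.049, from 2.01 to 49.13 M tags per library. Intervals use these tags, cover counting error only, and a count of 3 tags equals 0.611 to 14.947 tags per 10 M. Header totals of a library differ between tables, so tables were analysed separately. One further ESC table of RING1B CUT&RUN, with 2 columns of per-sample values outside the sample list, and 6 columns of pooled values were not used.

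Per gene the strongest peak within 10 kb was used. Tests ran over all peaks of a table on log2(value + 1) with limma 3.58.1 (trend, R 4.3.3), Benjamini-Hochberg, threshold 0.05. The experiment was a block, because the series design text states that comparisons were made within experiments; deviations of same-numbered libraries correlated by 0.04 to 0.3 (CBX7), 0 (RING1B) and 0.09 (H3K27me3). Prior degrees of freedom were infinite, so a p-value reflects the spread usual at that signal strength. Fold changes of weak peaks are understated. Alternatives were edgeR 4.0.16 and DESeq2 1.42.0 on recovered read ends, each with its own scaling of the libraries over the peaks. Others were no block, other pseudocounts, a filter, another scaling, the nearest peak and leaving out experiments. Python 3.11.15, pandas 2.3.3, scipy 1.17.1 and matplotlib 3.10.9 did the rest. Named genes were the 7 genes, the 5 most similar ones, and relatives that passed a test or 2-fold; of the last, examples are given. The members, lists, tests and motifs were chosen with earlier results of these data known.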

Additional observations from a re-analysis of the deposited data

Results flagged for a closer look

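At Tox, day 8 minus ESC for RING1B was 1.56 and 1.71 in the CaPS experiments and -0.91 and -1.37 in the WT experiments on the log2(value + 1) scale, a mean difference of courses of 2.77. Tbc1d9 had 1.54 and 2.14 in CaPS and -0.8 and -1.37 in WT, a mean difference of 2.92. Both were flagged because both experiments of one genotype have the opposite sign to both of the other. The genes were chosen on these libraries for a higher course in CaPS, so the pattern is a description only. Over all peaks the medians were -0.64 and -0.35 in CaPS and -0.61 and -0.62 in WT. The difference was not tested.

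At Tox, CaPS minus WT for RING1B was below 0 in the 3 ESC experiments, at -0.64, -0.96 and -1.25, and above 0 in the 2 day-8 experiments, at 0.49 (experiment 4) and 1.41 (experiment 3). The means of the 2 stages differ by 1.9. Tox was flagged because every experiment of one stage has the opposite sign to every experiment of the other. Over all peaks the medians were -0.53, -1.42 and 0.0 in ESC experiments 1, 2 and 3. At day 8 they were -0.88 in experiment 4 and 0.15 in experiment 3. In ESC, 42.2% of all peaks were lower in CaPS in all 3 experiments. The experiment 3 values come from samples on which the genes were chosen. The 2 stages are in separately scaled tables and the difference was not tested.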

How the results depend on the processing

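The number of genes with CBX7 called in ESC was 2 as reported. The count was 0 under limma with no replicate block and 0 with the same sum over the peaks. Under edgeR and DESeq2, both with the block, the count was 0. Both rescale the libraries over the peaks, which took the all-peak median from -0.85 to 0.04 and 0.02. DESeq2 gave no adjusted p for Prkar2b or Rragd, so neither could be called by it. The count was also 0 on tags without the scaling to 10 M, an alternative chosen after seeing the data. When an experiment was left out, the count was 1 to 2. The replicate block moved the count over all peaks from 2 lower without it to 2801 lower with it, and for RING1B in ESC from 0 to 1098, with 0 under edgeR and DESeq2. For RING1B and H3K27me3 in ESC, 0 of these genes were called under each alternative run; DESeq2 gave no adjusted p for the H3K27me3 peaks of these genes, and leaving out an experiment left 1 pair and no test. With the same sum over the peaks, genes above WT in RING1B CUT&RUN of ESC were 1 of 4 for CaPS and 1 of 4 for mCaPS, against 0 as reported, and in H3K27me3 CUT&RUN 1 of 2, against 2. With the peak nearest to the start, Tle4 at day 8 reversed to -0.12. The mean time-course contrast was above 0 at 7 of 7 genes under the alternatives run, a direction for which the genes were chosen; above 0 in both experiments at day 6 were 6 of 7. Day-8 RING1B in the mean of its experiments had 6 or 7 of 7 above 0. Depth was 2.01 to 6.2 M tags in experiment 5 of the time course. The causes were not tested.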

Other observations

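H3K27me3 peaks named for Tle4 but lying outside the 10 kb limit were lower in CaPS at day 8, unlike the marked peaks near Tox, Rragd and Nova1. There are 8 of them, 4 between 26.6 and 34.6 kb downstream of the start and 4 between 290 and 300 kb upstream. The highest had 49.87 tags per 10 M in CaPS and 192.46 in WT, and the one nearest to the start 10.34 in CaPS and 63.78 in WT. WT over CaPS ran from 3.86 to 14.1, in a table where 53.1% of all peaks were past 2-fold lower in CaPS. With 1 column per genotype there is no test.

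RING1B at 9 measured neural progenitor genes (such as Pax6, Sox1 and Olig2) was lower at day 8 than in ESC in both experiments at 8 of 9 in CaPS and at 8 of 9 in WT, with median changes of -1.2 in CaPS and -1.62 in WT on the log2(value + 1) scale, beside -0.48 in CaPS and -0.61 in WT over all peaks. The contrast of courses, CaPS minus WT, was above 0 in both experiments at 6 of these 9 genes, beside 33.9% of all peaks, with a median of 0.6. At 7 measured pluripotency genes the medians were -0.46 in CaPS and -0.37 in WT. At 7 measured fibroblast genes, listed because of the feeder layer, they were -1.13 in CaPS and -1.32 in WT. These lists describe RING1B and not transcripts.

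Peaks on the chromosomes of the 7 genes differed from other peaks by little in most comparisons: chromosome medians departed from the rest by -0.06 to 0.22 on chromosome 4, -0.12 to 0.07 on 12 and -0.18 to 0.15 on 19 (log2, 18 comparisons). The range was -0.48 to 0.09 on chromosome 8, which holds Tbc1d9, and -0.4 to 0.29 on X, which holds Ap1s2.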
